A study of Mus musculus with 12 samples.

Results

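The genes examined here encode the major histocompatibility complex (MHC) of the mouse, called H2, and the proteins that load and regulate it, in the liver of female mice with and without estrogen receptor alpha. Members were all genes whose symbol in the array annotation starts with H2-, together with B2m, Cd74, Ciita, Tap1, Tap2, Tapbp and Nlrc5. The rule found 30 of the 18194 genes on the array, 23 named H2- and 7 others, and each was represented by its probe set with the highest mean signal. A probe set is a group of short probes that together report 1 transcript. A further 15 probe sets carried several symbols, at least 1 of them a member's or an H2 gene's. They are treated apart because they cannot be given to a single gene. Of the H2 genes, 11 were seen only through such probe sets.

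Liver RNA of adult females on a B6.129 background was hybridised to 12 arrays in 4 groups of 3. Wild type mice (WT, Esr1+/+) and aERKO mice (Esr1-/-, disrupted in the gene of estrogen receptor alpha) had received NIH-31 chow, here normal diet, or research diet #12492 with 60 kcal% fat, here high-fat diet, for 2 weeks. Whether replicates were different animals is not in the labels, so every p-value rests on a spread that could be technical. The disruption was present in the whole animal, so no difference can be assigned to 1 cell type. The labels give neither the H2 haplotype of the mice nor whether WT and aERKO were littermates. H2 probes can be sensitive to strain sequence, and the part of strain differences in the Q and T region signals was not tested.

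In background, class I molecules hold a heavy chain and the light chain beta-2 microglobulin, and show peptides from inside the cell to CD8 T cells and natural killer cells. The proteasome cuts these peptides, the transporter Tap1/Tap2 carries them into the endoplasmic reticulum, and Tapbp (tapasin) helps to load them. Class II molecules pair an alpha and a beta chain on dendritic cells, B cells and macrophages, and show peptides from taken-up material to CD4 T cells. Cd74 is their invariant chain, H2-DM exchanges peptides in them and H2-O restrains H2-DM. In liver, hepatocytes make class I, and Kupffer cells, the resident macrophages, are among the cells that make class II. Nlrc5 and Ciita are the transactivators of class I and class II genes.

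Signals are linear array intensities, and levels of different probe sets cannot be set against each other. Of the 30 members, 23 were above the median signal of their array on at least 3 of 12 arrays and were tested. The other 7, H2-D4, H2-Ea, H2-M9, H2-Oa, H2-Ob, H2-Q2 and H2-T24, gave signals between 2.70 and 180.0 and were not tested, against array medians of 75.6 to 114. H2 genes differ between strains and resemble each other. Of the 60 single-symbol probe sets of members, 20 carry the suffix x and 3 the suffix s, which the manufacturer gives to probes shared with other transcripts. The values of such probe sets may therefore mix several H2 genes. H2-K1, H2-D1, H2-Aa, H2-T3, H2-T18 and H2-DMb2 rest on x-type probe sets and H2-Ab1 on an s-type one. The probe set of H2-Q10 has the suffix a, for transcripts of 1 gene.

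Esr1 gave signals of 1963 to 3929.6 in WT and of 586 to 885 in aERKO, with no overlap. WT normal replicate 2, WT high-fat replicates 2 and 3 and aERKO normal replicate 1 carried transcripts of pancreas. The mean log2 signal of 8 acinar genes was at least 10.2 on each of these arrays and 5.76 to 6.82 on the others. Skeletal muscle genes (8 tested of 10) had their highest mean log2 signals in aERKO normal replicate 1, at 10.7, and aERKO high-fat replicate 2, at 9.24. Calls are given with and without the 4 arrays with pancreatic transcripts. Leaving them out keeps 8 arrays, with 1 in the WT high-fat group.

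H2-Q10 was the member that differed between genotypes. It encodes a class I heavy chain of the Q region that hepatocytes make and secrete, with no membrane anchor. Its promoter was set beside those of the neighbouring Q genes H2-Q6 and H2-Q7, of H2-T23, which encodes the Qa-1 heavy chain, and of the classical gene H2-D1, because probe sets of H2-Q6, H2-Q7 and H2-T23 gave the other genotype differences described here and H2-D1 serves as the classical comparison. The sequences are the 250 bases before the RefSeq start of each gene in assembly GRCm38.p6, from 5′ to 3′ on the strand of the gene. On chromosome 17 they span 35469839 to 35470088 (plus strand) for H2-Q10, 35424600 to 35424849 (plus) for H2-Q6, 35438905 to 35439154 (plus) for H2-Q7, 36032702 to 36032951 (minus) for H2-T23 and 35262844 to 35263093 (plus) for H2-D1. Capitals mark, in order, the kappa B element GGGGATTCC, the interferon-stimulated core TTTCACTTC and the CCAAT element CCAATCAG, and in H2-Q10 also the windows nearest to them.
H2-Q10: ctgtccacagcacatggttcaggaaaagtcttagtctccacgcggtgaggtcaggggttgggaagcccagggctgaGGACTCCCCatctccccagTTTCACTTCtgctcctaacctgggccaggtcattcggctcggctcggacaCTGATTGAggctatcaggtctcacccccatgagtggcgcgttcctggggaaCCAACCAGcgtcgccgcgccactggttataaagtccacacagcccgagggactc
H2-Q6: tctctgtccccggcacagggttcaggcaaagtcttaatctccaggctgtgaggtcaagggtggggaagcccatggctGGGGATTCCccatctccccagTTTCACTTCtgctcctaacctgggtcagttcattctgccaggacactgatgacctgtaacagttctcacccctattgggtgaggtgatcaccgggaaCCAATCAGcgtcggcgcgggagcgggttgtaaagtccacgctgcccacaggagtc
H2-Q7: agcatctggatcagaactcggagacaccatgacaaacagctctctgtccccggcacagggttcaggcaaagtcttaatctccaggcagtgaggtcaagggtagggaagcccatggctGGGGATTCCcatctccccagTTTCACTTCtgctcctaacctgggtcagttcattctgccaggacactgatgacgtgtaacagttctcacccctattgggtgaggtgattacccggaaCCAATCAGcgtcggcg
H2-T23: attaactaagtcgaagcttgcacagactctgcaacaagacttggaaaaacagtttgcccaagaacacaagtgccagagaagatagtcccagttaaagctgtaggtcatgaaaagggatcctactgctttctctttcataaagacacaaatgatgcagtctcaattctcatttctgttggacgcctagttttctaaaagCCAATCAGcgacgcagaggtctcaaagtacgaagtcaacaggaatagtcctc
H2-D1: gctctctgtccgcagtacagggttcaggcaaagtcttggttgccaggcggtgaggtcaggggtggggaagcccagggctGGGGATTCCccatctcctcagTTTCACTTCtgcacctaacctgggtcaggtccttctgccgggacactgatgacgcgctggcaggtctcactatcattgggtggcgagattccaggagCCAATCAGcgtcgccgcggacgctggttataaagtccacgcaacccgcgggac
H2-Q6, H2-Q7 and H2-D1 held all 3 motifs. H2-Q10 held TTTCACTTC exactly, but its nearest kappa B window, on the minus strand 174 bases before the start, had the substitution T6G. On the plus strand, after the run gggct, H2-D1 reads GGGGATTCC and H2-Q10 reads gaGGACTCC, which differ at more than 1 base. The nearest CCAAT windows of H2-Q10 had C1T and T5C. Positions count from 1 at the motif's 5′ end, with the motif's base first. H2-T23 held only CCAATCAG. The exact-match pattern of H2-Q10 was not particular to it. H2-Q4, in a shared probe set described below, and H2-M3 also held TTTCACTTC without an exact GGGGATTCC or CCAATCAG. H2-K1 held all 3. The aligned bases of the H2-Q6 and H2-Q7 windows were 97.6% identical, those of H2-Q6 and H2-Q10 81.2% and those of H2-D1 and H2-Q10 85.9%. Both strands of the 300-base window from 250 bases before to 50 after the start were searched. Among all 32851 RefSeq windows of this length, GGGGATTCC occurred in 0.25%, TTTCACTTC in 0.505% and CCAATCAG in 4.1%. A match describes letters and does not show that a factor binds there, and the motifs were chosen after the expression values were known.

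H2-Q10 signals were 26513, 25027 and 26868 in WT normal, 19776, 19719 and 23951 in WT high-fat, 30104, 32646 and 27922 in aERKO normal, 32507, 30634 and 29216 in aERKO high-fat. All 6 aERKO arrays lay above the highest WT array, and the WT high-fat arrays were the lowest of all. The group means were 26136 ± 977 in WT normal, 21149 ± 2427 in WT high-fat, 30224 ± 2364 in aERKO normal and 30786 ± 1651 in aERKO high-fat (SD, n = 3). On the log2(signal + 16) scale H2-Q10 was higher in aERKO by 0.55 ± 0.09 (95% interval 0.35 to 0.74), adjusted p = 0.0059 on high-fat diet and by 0.38 ± 0.07 (95% interval 0.24 to 0.52), adjusted p = 0.0040 averaged over the diets. On normal diet the difference of 0.21 ± 0.09 (95% interval 0.01 to 0.41), adjusted p = 0.385 did not pass. Adjusted p-values are from limma, adjusted by the Benjamini-Hochberg method over 12264 genes, and a gene was called under 0.05.

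H2-Q10 had lower values with high-fat diet in WT and overlapping values in aERKO, and none of the diet or interaction tests passed. The diet difference was -0.31 ± 0.09, adjusted p = 0.365 in WT, where the high-fat arrays lay below the normal-diet arrays, and 0.03 ± 0.09, adjusted p = 0.947 in aERKO, where the groups overlapped. The interaction was 0.34 ± 0.13 (95% interval 0.06 to 0.62), with an unadjusted p of 0.0213 and adjusted p = 0.786. Without the 4 arrays with pancreatic transcripts the genotype difference was 0.64 on high-fat diet (adjusted p = 0.103) and 0.41 averaged over diets (adjusted p = 0.0653), and the calls were lost. Both calls held when any 1 of the 12 arrays was left out, with high-fat differences of 0.50 to 0.64.

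Of the probe sets that carry several symbols, 3 were called lower in aERKO averaged over diets. They report H2-T23 with H2-T-ps, H2-Q9 with H2-Q7, and H2-Q6 with H2-Q8, genes of the Q and T regions whose products are non-classical class I chains. Probe sets with several symbols were tested in a second model over all 25412 probe sets that passed the filter, which was added after the data were seen. Of the 15 probe sets with several symbols 11 passed the filter. In this model 0.677% of all probe sets were called for genotype on normal diet, 1.29% on high-fat diet and 3.21% averaged over diets. Of the 11, 0 were called on normal diet, 2 were called lower on high-fat diet and 3 lower averaged over diets, and 0 were called higher in any of these. Their median log2 difference was -0.26, -0.36 and -0.36 in these comparisons, against -0.05, -0.05 and -0.06 over all probe sets.

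The probe set shared by H2-T23 and the pseudogene H2-T-ps had signals of 12660.2, 11942 and 11060.5 in WT normal, 14763, 14035 and 14210.1 in WT high-fat, 10127, 10258 and 9344 in aERKO normal, 11529, 10455 and 9551 in aERKO high-fat. The WT high-fat arrays were the highest, and 5 of the 6 aERKO arrays lay below the lowest WT array. It was lower in aERKO than in WT by 0.45 ± 0.09 on high-fat diet (adjusted p = 0.0264) and by 0.36 ± 0.07 averaged over diets (adjusted p = 0.0077). On normal diet the difference was -0.26 ± 0.09, adjusted p = 0.299. H2-T23 encodes Qa-1, a ligand of CD94/NKG2 receptors of natural killer cells.

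The probe set of H2-Q9 and H2-Q7, which encode forms of Qa-2, had signals of 4055, 4143 and 4243 in WT normal, 4370.5, 3726 and 4675 in WT high-fat, 3378, 3329 and 3879 in aERKO normal, 2504, 2781 and 3274 in aERKO high-fat. On high-fat diet every aERKO array lay below every WT array, and on normal diet all 3 aERKO arrays also lay below the WT arrays. It was lower in aERKO than in WT by 0.58 ± 0.12 on high-fat diet (adjusted p = 0.0320) and by 0.41 ± 0.09 averaged over diets (adjusted p = 0.0191). On normal diet the difference was -0.24 ± 0.12, adjusted p = 0.516.

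The probe set of H2-Q6 and H2-Q8 had signals of 1574, 1492 and 2052 in WT normal, 1674, 1839 and 1894 in WT high-fat, 992, 1021 and 1217 in aERKO normal, 867, 802 and 1504 in aERKO high-fat. The aERKO arrays were low on normal diet without overlap, and on high-fat diet aERKO replicate 3 came close to the WT arrays. It was lower in aERKO than in WT by 0.73 ± 0.14 averaged over diets (adjusted p = 0.0119). The difference was -0.65 ± 0.20, adjusted p = 0.229 on normal and -0.82 ± 0.20, adjusted p = 0.069 on high-fat diet. A second probe set, of H2-Q6, H2-Q8 and H2-Q4, had signals of 539.5, 693 and 429 in WT normal, 759, 624 and 597 in WT high-fat, 530.1, 439 and 465 in aERKO normal, 251, 303 and 490.4 in aERKO high-fat. It overlapped on normal diet and did not on high-fat diet. Its difference was -0.94 ± 0.23, adjusted p = 0.063 on high-fat diet and -0.56 ± 0.16, adjusted p = 0.078 averaged over diets. Without aERKO high-fat replicate 3 both probe sets were called on high-fat diet, at -1.10 (adjusted p = 0.0037) and -1.20 (adjusted p = 0.0112), and the second also averaged over diets, at -0.69 (adjusted p = 0.0166).

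Not all shared T region probes were lower. The probe set of H2-T9, H2-T10 and H2-T22 had signals of 4396, 4388 and 3273 in WT normal, 5201, 4430.2 and 5771 in WT high-fat, 3994, 4462 and 3570.3 in aERKO normal, 5056, 5535 and 5059 in aERKO high-fat. WT and aERKO arrays overlapped on both diets, and the averaged genotype difference was 0.02 ± 0.10 (95% interval -0.19 to 0.22), adjusted p = 0.947. The interaction passed for none of the 11 probe sets (lowest adjusted p 0.894). In this second model H2-Q10 was again called, on high-fat diet (adjusted p = 0.0087) and averaged over diets (adjusted p = 0.0056), and no other of the 43 tested single-symbol probe sets of members was called in any of the 7 comparisons. It lost the high-fat call there without WT high-fat replicate 1 (adjusted p = 0.0576) or aERKO high-fat replicate 1 (adjusted p = 0.0527).

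**Figure D1:**
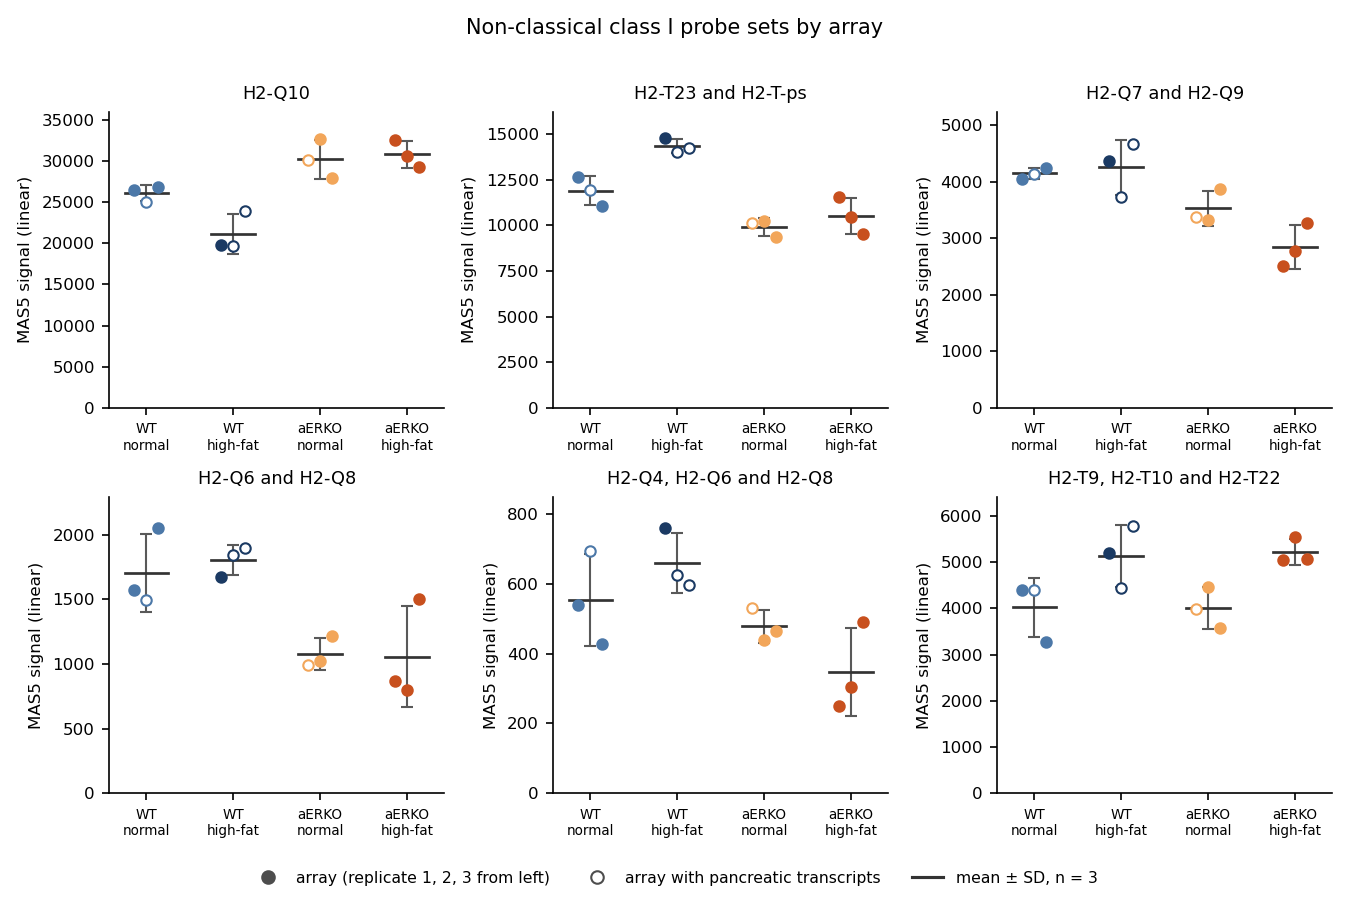
Array signal (linear intensity) of H2-Q10 and of the Q and T region probe sets with several symbols, by group. Points are arrays, bars are mean ± SD (n = 3), and open circles are the 4 arrays with pancreatic transcripts. H2-Q10 is higher on all 6 aERKO arrays than on any WT array, while the H2-T23 probe set is lower on 5 of 6.

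The lower calls of the shared probe sets depended on some arrays, and those of H2-T23 and of H2-Q9 and H2-Q7 also on scaling. Without the 4 arrays with pancreatic transcripts the averaged difference was -0.38 for the H2-T23 probe set (adjusted p = 0.164), -0.41 for H2-Q9 and H2-Q7 (adjusted p = 0.1997) and -0.70 for H2-Q6 and H2-Q8 (adjusted p = 0.1997), and no call was left. With each array centred on its median the averaged difference was -0.27 for H2-T23 (adjusted p = 0.113) and -0.32 for H2-Q9 and H2-Q7 (adjusted p = 0.0564). The averaged call of H2-Q6 and H2-Q8 held with this centring, and in 9 of the 11 settings other than leaving out 1 array. On high-fat diet the H2-T23 call was lost without any 1 of WT high-fat replicates 1, 2 and 3 or aERKO high-fat replicates 2 and 3, at -0.43, -0.47, -0.46, -0.45 and -0.38. The H2-Q9 and H2-Q7 call on high-fat diet was lost without WT high-fat replicate 1 or 3 or aERKO high-fat replicate 1 or 2, at -0.56, -0.51, -0.49 and -0.56. Averaged over diets it was lost without WT high-fat replicate 1 or 3, aERKO normal replicate 2, or aERKO high-fat replicate 1 or 2, at adjusted p-values of 0.0503 to 0.0552. The averaged calls of H2-T23 and of H2-Q6 and H2-Q8 held without any 1 array.

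Over all 23 tested members, H2-Q10 was the only call for genotype. On normal diet 0 members were called, where 1.22% of the 12264 genes were, and 2 members were higher and 2 lower at an unadjusted p under 0.05. Of all 12264 genes, 617 were higher and 865 lower at that unadjusted p. On high-fat diet 1 was called, where 1.98% of genes were. Averaged over diets 1 was called, where 4.32% of genes were. These counts are near the background, and nothing about the members as a set is read from them. The median log2 difference of the members was -0.06, -0.07 and -0.12 in the 3 comparisons, against -0.05, -0.03 and -0.05 over all genes. Averaged over diets 5 members were positive and 18 negative. With arrays centred on their medians the split was 11 positive and 12 negative, so the sign of the small differences depends on scaling. The same centring moved the averaged calls over all genes from 253 higher and 277 lower to 396 and 172. It moved those on normal diet from 72 and 78 to 86 and 57, and those on high-fat diet from 135 and 108 to 170 and 69.

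**Figure D2:**
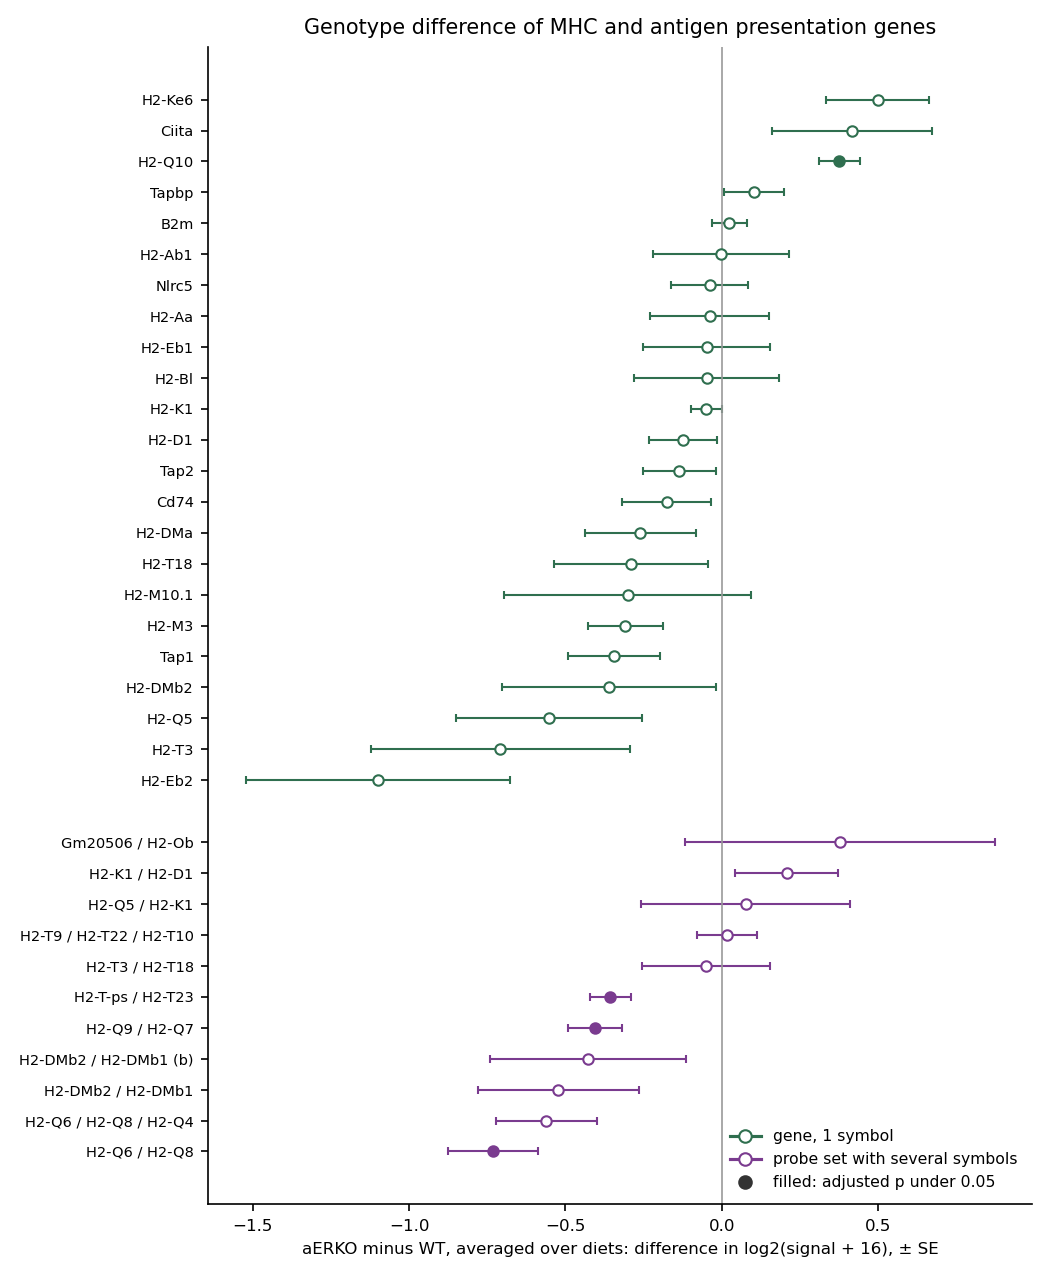
Averaged genotype difference (aERKO minus WT, log2 scale) ± SE of the 23 tested members, in green, and of the 11 tested probe sets with several symbols, in purple, over 12 arrays. Filled points have an adjusted p under 0.05 within their own model. H2-Q10 is the filled member, at 0.38, and the filled shared probe sets are at -0.36, -0.41 and -0.73.

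Without regard to the test, the arrays of aERKO and WT did not overlap for 2 members on normal diet, H2-Q10 (higher) and H2-Eb2 (lower), where 15.8% of all genes did not overlap. On high-fat diet H2-Q10, Ciita and H2-Ke6 were higher and H2-T3, H2-M3 and Tap1 lower without overlap, 6 of 23 members, where 22.5% of all genes did not overlap.

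The classical class I chains, which present peptides to CD8 T cells, were bright on every array and did not differ by genotype beyond their error. H2-K1 signals were 32510.5, 32911 and 33243 in WT normal, 30201, 31663 and 32356 in WT high-fat, 33306, 31749.9 and 29503 in aERKO normal, 29969, 30658 and 31326 in aERKO high-fat. Genotypes overlapped on both diets, and the averaged difference was -0.05 ± 0.05 (95% interval -0.16 to 0.06), adjusted p = 0.627. H2-D1 signals were 22276, 22702 and 22774 in WT normal, 19042, 17714 and 17993 in WT high-fat, 25086, 17237 and 17580.3 in aERKO normal, 21062, 18940.2 and 13798 in aERKO high-fat. The aERKO arrays of H2-D1 spread widely, from below to above the WT arrays, and the averaged difference was -0.12 ± 0.11 (95% interval -0.35 to 0.11), adjusted p = 0.569. Other probe sets of these genes differed in sign: over the 4 tested for H2-K1 the averaged difference ran from -0.05 to 0.39, and over the 8 tested of 9 for H2-D1 from -0.30 to 0.61, and 0 were called.

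B2m, the light chain that the class I heavy chains need, gave 48853, 45426 and 47689 in WT normal, 50065, 48807 and 46272 in WT high-fat, 48482, 50374 and 45902 in aERKO normal, 49504, 44617 and 53454 in aERKO high-fat. All 12 arrays lay between 44617 and 53454, and the averaged genotype difference was 0.02 ± 0.06 (95% interval -0.09 to 0.14), adjusted p = 0.848. The second probe set of B2m had the other sign, at -0.19 on normal diet and -0.11 averaged over diets, and was not called either. Its group means were 45489 in WT normal, 40955 in WT high-fat, 39974.5 in aERKO normal and 40390 in aERKO high-fat. Very bright MAS5 signals such as these can be saturated. Saturation cannot be read from the deposited signal and its part was not tested.

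Among the loading genes, Tap1 signals were 419, 649 and 566 in WT normal, 546, 512 and 524 in WT high-fat, 296, 438 and 541 in aERKO normal, 422, 368 and 469 in aERKO high-fat. On high-fat diet the aERKO arrays lay below all WT arrays, and on normal diet they overlapped. The averaged difference of Tap1 was -0.34 ± 0.15 (95% interval -0.66 to -0.03), adjusted p = 0.217, with an unadjusted p of 0.0359. Without the 4 arrays with pancreatic transcripts it was -0.19 (adjusted p = 0.646). Tap2 signals were 344, 388 and 352 in WT normal, 370.1, 395 and 339 in WT high-fat, 385, 323 and 329.9 in aERKO normal, 258, 377 and 324 in aERKO high-fat, with overlap on both diets. Its averaged difference was -0.14 ± 0.12 (95% interval -0.39 to 0.11), adjusted p = 0.562. Tapbp signals were 2109.8, 2465 and 1788 in WT normal, 2006, 2090.1 and 2022 in WT high-fat, 1902, 2292 and 2271 in aERKO normal, 1992, 2397 and 2564 in aERKO high-fat, again overlapping, and its averaged difference was 0.10 ± 0.10 (95% interval -0.10 to 0.31), adjusted p = 0.599. The second tested probe set of Tapbp had the other sign, at -0.27, and was not called either.

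Nlrc5, the transactivator of class I genes, had signals of 1276, 1091 and 805 in WT normal, 1046, 757 and 828 in WT high-fat, 1183, 940.1 and 989 in aERKO normal, 794, 893 and 802 in aERKO high-fat. Genotypes overlapped on both diets, with an averaged difference of -0.04 ± 0.12 (95% interval -0.30 to 0.23), adjusted p = 0.893. In aERKO the high-fat arrays lay below the normal-diet arrays, and the diet difference averaged over genotypes was -0.28 ± 0.12, adjusted p = 0.364.

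**Figure D3:**
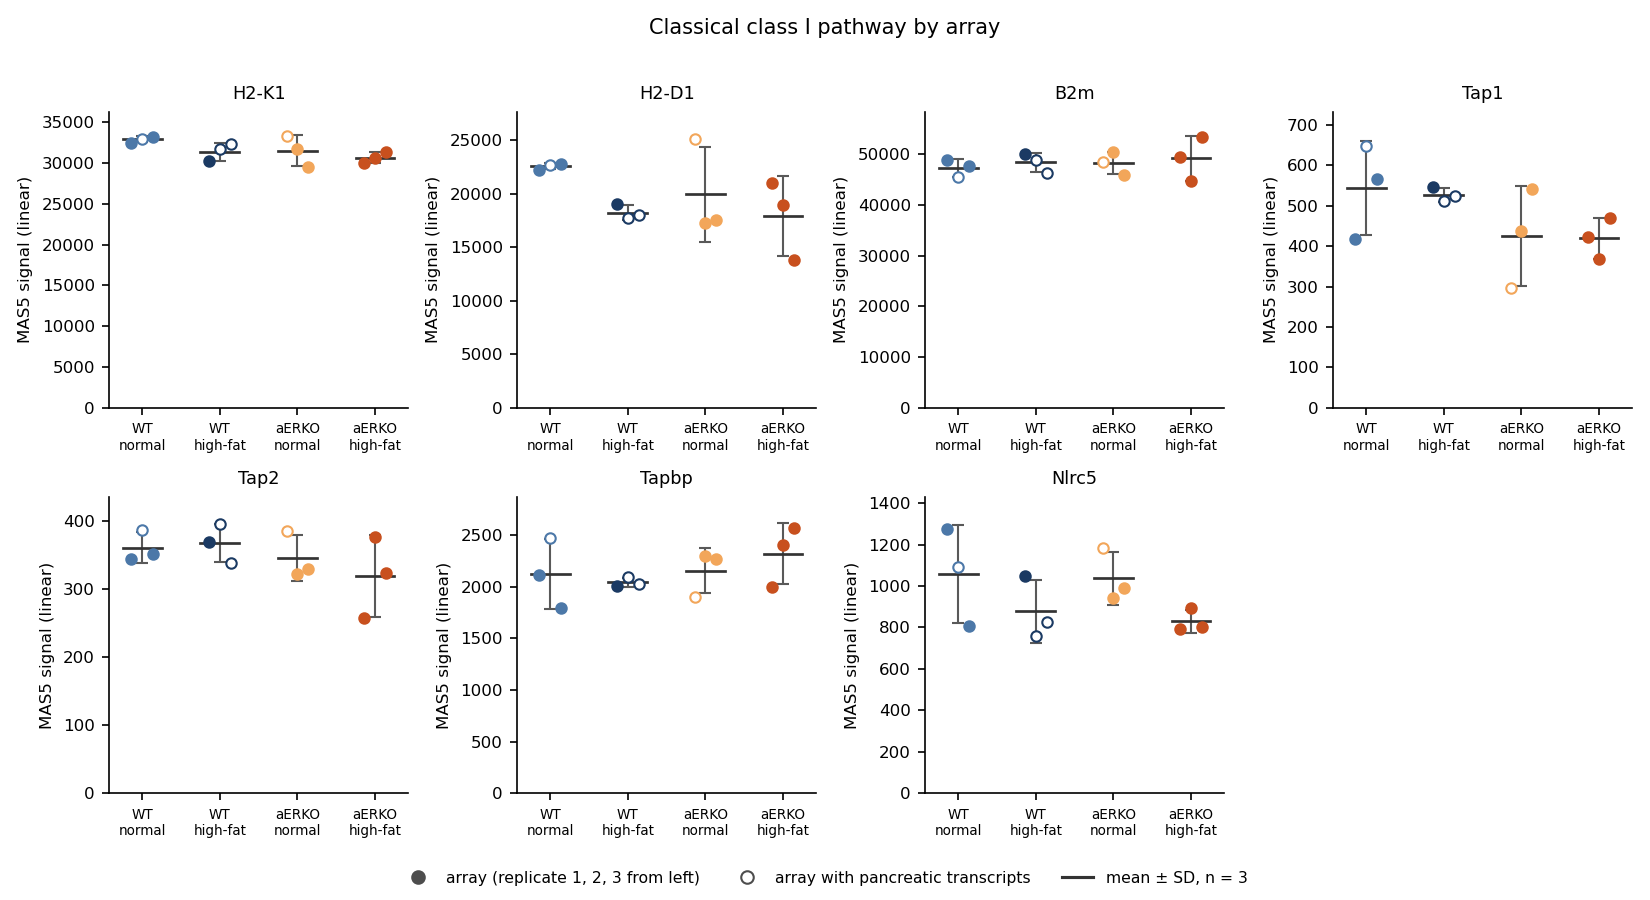
Array signal (linear intensity) of the class I chains and of B2m, Tap1, Tap2, Tapbp and Nlrc5 by group, with arrays as points, bars as mean ± SD (n = 3) and open circles for the 4 arrays with pancreatic transcripts. Genotypes overlap in every panel on normal diet, and Tap1 is lower without overlap in aERKO on high-fat diet.

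The class II genes are set beside their promoters, since the alpha and beta chains are known to share a regulatory module read by RFX, NF-Y and Ciita. The 250 bases before the start lie at 34287824 to 34288073 on chromosome 17 (minus strand) for H2-Aa and at 34305617 to 34305866 (plus) for H2-Eb1, in GRCm38.p6. Capitals mark the X box core GCAACT and then the Y box, read here as CTGATTGG, the reverse complement of CCAATCAG.
H2-Aa: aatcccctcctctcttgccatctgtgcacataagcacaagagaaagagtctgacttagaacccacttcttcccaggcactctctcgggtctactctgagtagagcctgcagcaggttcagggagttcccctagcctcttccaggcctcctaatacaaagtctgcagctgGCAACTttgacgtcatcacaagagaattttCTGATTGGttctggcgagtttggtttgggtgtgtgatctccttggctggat
H2-Eb1: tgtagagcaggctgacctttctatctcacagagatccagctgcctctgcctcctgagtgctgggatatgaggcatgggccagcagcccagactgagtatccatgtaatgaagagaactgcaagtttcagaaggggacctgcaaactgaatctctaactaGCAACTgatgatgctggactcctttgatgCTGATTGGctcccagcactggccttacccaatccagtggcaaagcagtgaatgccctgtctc
In both, GCAACT came before the Y box on the strand of the gene. GCAACT alone occurred in 10.9% of the 32851 windows. H2-Eb2 and the class I loading gene Tap1 held both motifs too, and H2-DMa and H2-DMb2 held neither. The RefSeq table held windows for 19 of the 30 members.

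The brighter class II chains overlapped between all groups. H2-Aa, the alpha chain of I-A, had signals of 2617, 3948 and 1898 in WT normal, 3640.4, 2343 and 2859 in WT high-fat, 3956, 2374 and 2029 in aERKO normal, 2848, 2364 and 3173 in aERKO high-fat. H2-Ab1, its beta chain, had 699, 1337 and 499 in WT normal, 849.5, 544 and 750.5 in WT high-fat, 920.0, 809 and 518 in aERKO normal, 917, 629 and 719 in aERKO high-fat. WT normal replicate 2 was high and WT normal replicate 3 low for both, and every pair of groups overlapped. H2-Eb1, the beta chain of I-E, had 1065, 1608 and 721 in WT normal, 1179, 761 and 1094 in WT high-fat, 1613, 949 and 783 in aERKO normal, 1004, 818 and 1011 in aERKO high-fat, with the same highest and lowest WT normal arrays. Averaged over diets the genotype difference was -0.04 ± 0.19 (95% interval -0.45 to 0.37), adjusted p = 0.933 for H2-Aa. It was -0.0029 ± 0.22 (95% interval -0.47 to 0.46), adjusted p = 0.996 for H2-Ab1 and -0.05 ± 0.20 (95% interval -0.48 to 0.39), adjusted p = 0.922 for H2-Eb1. Each of these 3 intervals includes negative differences as large as the averaged H2-Q10 difference of 0.38. Over the 4 tested probe sets of H2-Aa the averaged difference ran from -0.19 to 0.21. Over the 3 of H2-Ab1 it ran from -0.18 to -0.0029, and none of these was called.

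Cd74, which escorts class II chains, had signals of 534, 573 and 490.3 in WT normal, 578, 391 and 468 in WT high-fat, 637, 410.4 and 439 in aERKO normal, 379, 340.5 and 504 in aERKO high-fat. The groups overlapped, with an averaged genotype difference of -0.18 ± 0.14 (95% interval -0.48 to 0.13), adjusted p = 0.536. Ciita, the class II transactivator, was above the array median on 7 of 12 arrays, with 114, 86.9 and 39.8 in WT normal, 55.2, 82.5 and 74.3 in WT high-fat, 91.3, 63.2 and 114 in aERKO normal, 120.3, 110.4 and 126 in aERKO high-fat. On high-fat diet its aERKO arrays were all above the WT arrays, at 0.65 ± 0.36, adjusted p = 0.428, and the averaged difference was 0.42 ± 0.26 (95% interval -0.13 to 0.97), adjusted p = 0.391. Other Ciita probe sets, above the array median on 0 and 1 arrays, went the other way on high-fat diet. Their means were 42.0 and 43.7 in WT and 34.3 and 23.2 in aERKO. The sign of the high-fat and of the averaged difference held in 23 of 24 alternative settings each, and the lowest values were -0.14 and -0.09.

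H2-Eb2, a second E beta gene, was dim and above the array median on 5 of 12 arrays, with 103, 75.7 and 181 in WT normal, 166, 95.8 and 29.9 in WT high-fat, 72.5, 32.6 and 13.5 in aERKO normal, 82.4, 30.5 and 19.9 in aERKO high-fat. On normal diet its aERKO arrays lay below the WT arrays, and on high-fat diet they overlapped. It had the widest difference of any member, -1.36 ± 0.60 (95% interval -2.65 to -0.08), adjusted p = 0.380 on normal diet, and -1.10 ± 0.42 (95% interval -2.01 to -0.19), adjusted p = 0.168 averaged over diets. Differences of dim probe sets are uncertain with MAS5, and it was not called. The arrays above their median were WT normal replicates 1 and 3, WT high-fat replicates 1 and 2 and aERKO high-fat replicate 1. H2-Eb2 thus passed the filter through WT, and its lower values in aERKO are not independent of that filter. H2-Ea, the E alpha chain, is defective in several common strains including C57BL/6, and stayed below its array's median signal often enough to go untested.

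H2-DMa, a chain of the peptide exchange factor, ranged from 135 to 296 and H2-DMb2 from 36.9 to 195. Their averaged differences were -0.26 ± 0.18, adjusted p = 0.448 and -0.36 ± 0.34, adjusted p = 0.603. H2-Oa and H2-Ob were not tested.

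**Figure D4:**
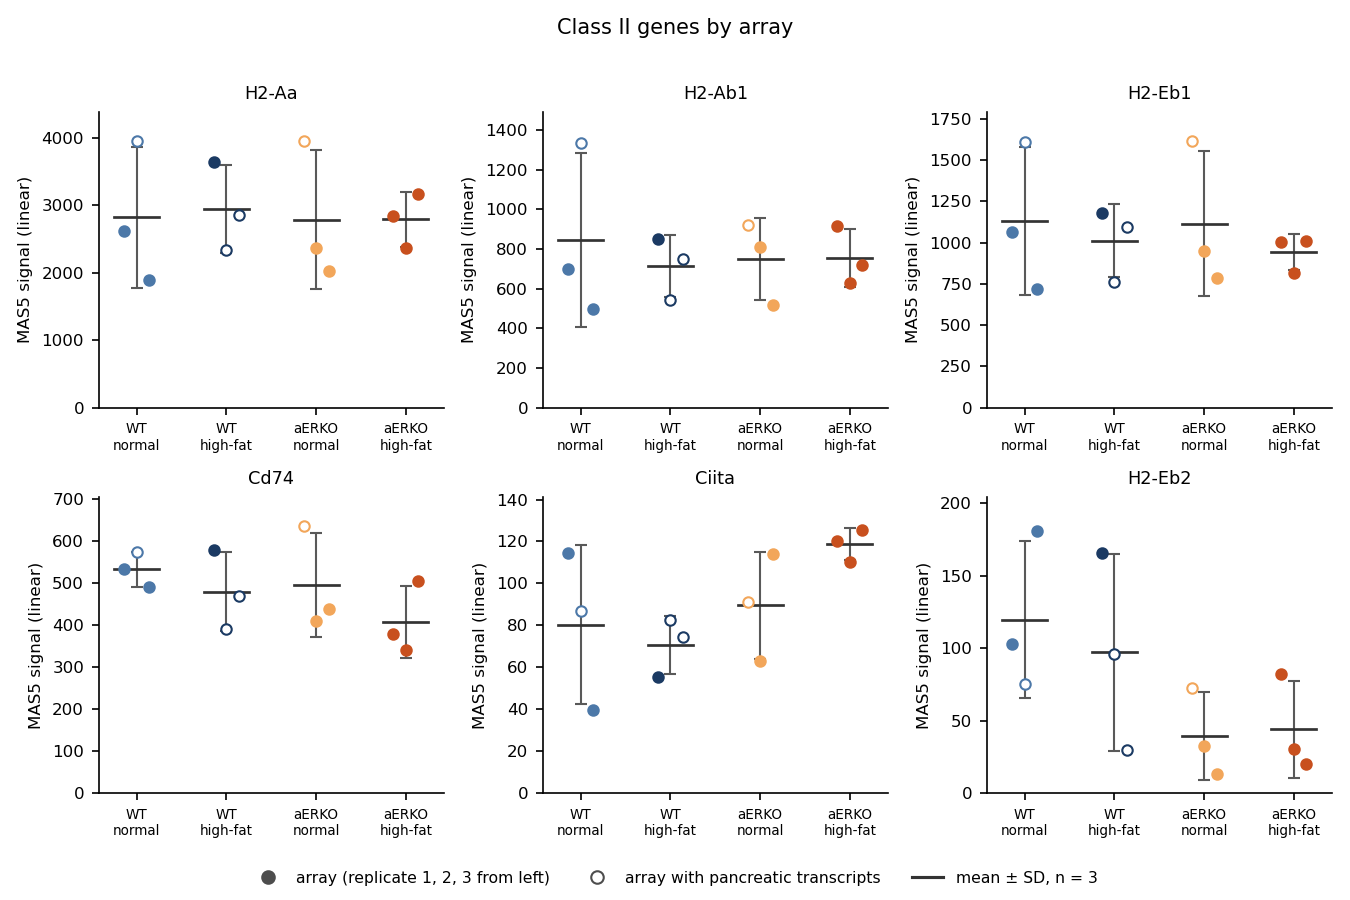
Array signal (linear intensity) of class II chains, Cd74 and Ciita by group, with arrays as points, bars as mean ± SD (n = 3) and open circles for the 4 arrays with pancreatic transcripts. H2-Aa, H2-Ab1 and H2-Eb1 are all highest within WT normal on replicate 2 and lowest on replicate 3, and the groups of these genes overlap. Genotypes do not overlap for Ciita on high-fat diet or for H2-Eb2 on normal diet.

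H2-Aa and H2-Ab1, the paired chains of I-A, were correlated over the 12 arrays. Pearson's r of the log2 values was 0.854 (permutation p = 3.50e-04, adjusted over the 9 gene pairs computed 0.0031) and Spearman's rho 0.888 (permutation p = 2.90e-04, adjusted 0.0026). Without WT normal replicate 2 and aERKO normal replicate 1, the 2 arrays farthest from the median of H2-Aa, r was 0.791. It was 0.793 over the 8 arrays without pancreatic transcripts and 0.882 for deviations from group means. The points share hybridisation and scaling within an array. H2-Aa rests on an x-type and H2-Ab1 on an s-type probe set, and such values may mix several H2 genes. Cd74 and H2-Ab1 had r = 0.439 (rho 0.427, permutation p = 0.154 and 0.169, adjusted 0.463 and 0.507), and over the 8 arrays r was 0.002. Tap1 and the immunoproteasome gene Psmb9 had r = 0.526 (rho 0.448, permutation p = 0.0784 and 0.149, adjusted 0.353 and 0.507), and r was 0.054 over the 8 arrays and 0.755 for deviations from group means. The remaining 6 pairs, of H2-Ab1 with Ciita, Clec4f and Cd79b and of H2-K1 with B2m, Nlrc5 and Gbp3, had r from -0.087 to 0.244, and their adjusted p for r was 0.923 in each.

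Of the other members, H2-M3, which presents formylated bacterial peptides, ranged from 335 to 562. Its aERKO arrays lay below its WT arrays on high-fat diet, and its averaged difference was -0.31 ± 0.12 (95% interval -0.56 to -0.05), adjusted p = 0.170. H2-Ke6, a hydroxysteroid dehydrogenase named only for its place in the region, ranged from 968 to 3118, with an averaged difference of 0.50 ± 0.17 (95% interval 0.14 to 0.85), adjusted p = 0.108. Without WT normal replicate 2 it was called, at 0.63 (adjusted p = 0.0338). The non-classical genes H2-Q5, H2-T3, H2-T18, H2-M10.1 and H2-Bl gave signals between 11.7 and 372. Their averaged differences lay between -0.71 (H2-T3) and -0.05 (H2-Bl), and 0 of the 5 were called.

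Diet moved no member past the test. In WT 0 of 23 members were called, where 0.0734% of genes were, and 1 was lower at an unadjusted p under 0.05. In aERKO 0 were called, where 0.481% were, and 0 had an unadjusted p under 0.05. Averaged over genotypes 0 were called, where 0.946% were, and 3 were lower at an unadjusted p under 0.05. Of the 12264 genes, 488 were lower and 527 higher at that p in WT, 573 and 692 in aERKO, and 706 and 835 averaged. The median diet difference of the members was -0.08 in WT, 0.02 in aERKO and -0.05 on average, against values between -0.0048 and 0.0171 over all genes. In WT 6 members were positive and 17 negative, and without the 4 arrays with pancreatic transcripts 15 were positive and 8 negative. For the interaction 0 members were called, where 0% of genes were, and 1 member, H2-Q10, had an unadjusted p under 0.05. At that p the interaction was positive for 397 and negative for 331 of the 12264 genes.

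In WT the high-fat arrays lay below the normal-diet arrays without overlap for H2-Q10, H2-D1, H2-K1 and H2-T18, 4 of 23 members, where 14.3% of genes did not overlap. The difference was -0.31 ± 0.15 (95% interval -0.63 to 0.02), adjusted p = 0.617 for H2-D1 and -0.07 ± 0.07 (95% interval -0.22 to 0.08), adjusted p = 0.852 for H2-K1. In aERKO Nlrc5 alone did not overlap between diets, where 16.7% of genes did not.

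Genes around the members were counted from lists chosen with earlier results of these data known. Of all 12264 genes, 1.22% were called for genotype on normal diet, 1.98% on high-fat diet and 4.32% averaged over diets. Of the class I peptide production and loading genes 14 of 16 were tested, and 1 was called in any comparison. Calr (calreticulin), a chaperone of class I loading, rose in aERKO on high-fat diet, from 10145, 8694 and 9029 in WT to 13358, 13542 and 11548, by 0.46 ± 0.11, adjusted p = 0.049. Psmb8, Psmb9 and Psmb10, the catalytic subunits of the immunoproteasome, had averaged genotype differences of -0.34 ± 0.14, adjusted p = 0.197, then -0.02 ± 0.16, adjusted p = 0.956, and -0.48 ± 0.15, adjusted p = 0.082. Of the 11 class II processing genes, all tested, Marchf8, a ubiquitin ligase that turns over class II among other surface proteins, rose in aERKO averaged over diets by 0.52 ± 0.10, adjusted p = 0.0095. Its signals were 2598, 2211 and 1754 in WT normal, 2479.6, 2275 and 2375 in WT high-fat, 3021, 3514 and 3004 in aERKO normal, 3164, 3027 and 3883 in aERKO high-fat, with every aERKO array above every WT array. Ctss, which cleaves the invariant chain, and Ifi30, which reduces disulfide bonds of antigens, had averaged differences of -0.19 and -0.22 and were not called. None of the 12 tested of 15 MHC transcription factors or 8 of 10 costimulation genes was called by limma in any of the 7 comparisons. At an unadjusted p under 0.05, averaged over diets, 1 of the transcription factors was higher and 1 lower, and 1 costimulation gene was lower. Of all 12264 genes, 989 were higher and 1415 lower at that p.

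Interferon response genes, 19 of 25 tested, held 2 called genes. Of all 12264 genes, 1.22% were called for genotype on normal diet, 1.98% on high-fat diet and 4.32% averaged over diets. For diet averaged over genotypes 0.946% were called. Oas1a, a sensor enzyme for double-stranded RNA, had signals of 462, 413 and 432 in WT normal, 521, 464 and 550.1 in WT high-fat, 241, 267 and 282 in aERKO normal, 396, 389.5 and 413 in aERKO high-fat. All 6 aERKO arrays lay below the lowest WT array, aERKO high-fat replicate 3 only just. Oas1a was lower in aERKO than in WT by 0.70 ± 0.14 on normal diet (adjusted p = 0.0242) and by 0.52 averaged over diets (adjusted p = 0.0073). Gbp3, a guanylate-binding protein, had 466, 615 and 250 in WT normal, 928, 1025 and 997 in WT high-fat, 349, 371 and 298 in aERKO normal, 451, 515 and 481 in aERKO high-fat. On high-fat diet it fell by 1.004 ± 0.24 in aERKO (adjusted p = 0.0479), and averaged over diets it fell by 0.65 (adjusted p = 0.0448). It rose with high-fat diet averaged over genotypes by 0.85 ± 0.17, adjusted p = 0.030. The list had 5 positive and 14 negative averaged genotype differences (median -0.21, all genes -0.05), and 17 positive and 2 negative diet differences averaged over genotypes (median 0.20). Over all genes 5219 were positive and 7045 negative for genotype, and 6196 positive and 6068 negative for diet (median 0.0024). Without the 4 arrays with pancreatic transcripts the differences were -0.52 for Oas1a averaged over diets (adjusted p = 0.131), -0.92 for Gbp3 (adjusted p = 0.327) and 0.33 for Calr on high-fat diet (adjusted p = 0.502), and 0.51 for Marchf8 averaged over diets (adjusted p = 0.165), and none was called. Leaving out 1 array at a time kept the high-fat calls of Calr and Gbp3 in 3 of 12 fits each, and the averaged calls of Oas1a and Marchf8 in 12 of 12. The normal-diet call of Oas1a was kept in 7 of 12, the averaged genotype call of Gbp3 in 1 of 12 and its diet call in 4 of 12.

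Markers of Kupffer cells and macrophages had lower values in aERKO beside these genes. All 15 of 15 were negative in aERKO on normal diet, on high-fat diet and averaged over diets, with a median of -0.315 for the average. Of all 12264 genes 7045 were negative averaged over diets, 7091 on normal and 6676 on high-fat diet, and the averaged median was -0.05. With each array centred on its median that overall median was 0.02, and 15, 14 and 15 of the markers were negative on normal diet, on high-fat diet and averaged. Averaged over diets 2 of the 15 were called, where 4.32% of all genes were. Csf1r, the macrophage growth factor receptor, was lower in aERKO than in WT by 0.40 ± 0.09 (adjusted p = 0.0189). C1qa, a complement chain, was lower by 0.47 ± 0.12 (adjusted p = 0.0358). For diet averaged over genotypes, 9 markers were positive and 6 negative. In that comparison 0.946% of all genes were called. Among the markers, Marco was called lower with high-fat diet, at -1.16 (adjusted p = 0.0192). That call was kept in 10 of 12 fits with 1 array left out. Without the 4 arrays with pancreatic transcripts the Marco difference was -1.05. The summed signal of the list was 31283 to 32225 in WT normal, 28907 to 38301 in WT high-fat, 20981 to 30463 in aERKO normal and 23427 to 27283 in aERKO high-fat, and 0 of its markers were below the array median throughout. In whole tissue, fewer cells of a type and less RNA per cell cannot be told apart. Without the 4 arrays with pancreatic transcripts all 15 averaged differences were negative (median -0.29), and 14 of 15 on normal diet (median -0.39) and on high-fat diet (median -0.18, against -0.33 with all arrays), and Csf1r (adjusted p = 0.109) and C1qa (adjusted p = 0.244) were not called. With 1 array left out at a time, the C1qa call was kept in 4 of 12 fits and the Csf1r call in 11 of 12. The part of these cells in the lower Q and T region signals was not tested. H2-Aa and H2-Ab1, which such cells make and dendritic cells and B cells make as well, had averaged differences of -0.04 and -0.0029. Their 95% intervals, -0.45 to 0.37 and -0.47 to 0.46, include the marker median of -0.315, so these values cannot decide that part.

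In the hepatocyte list 9 of 10 were tested, and averaged over diets 2 were positive and 7 negative in aERKO (median -0.19). On normal diet 1 of the 9 was called, where 1.22% of all genes were. Averaged over diets 2 of the 9 were called, where 4.32% of all genes were. Alb (albumin) fell by 0.35 (adjusted p = 0.0133) and Ahsg (fetuin-A) fell by 0.32 (adjusted p = 0.0084), the opposite sign to H2-Q10, and both calls were kept in 12 of 12 fits with 1 array left out. Alb was also called on normal diet, at -0.50 (adjusted p = 0.0266), in 7 of 12 such fits. Without the 4 arrays with pancreatic transcripts none of these was called, at -0.32 for Alb (adjusted p = 0.206) and -0.33 for Ahsg (adjusted p = 0.165) averaged over diets and -0.56 for Alb on normal diet (adjusted p = 0.130). The lists of B cells (5 of 10 tested), dendritic cells (6 of 12), T and natural killer cells (6 of 12), neutrophils and monocytes (5 of 8) and sinusoidal endothelium (10 of 10) held 0 averaged genotype calls by limma, with 1, 1, 2, 0 and 3 lower and 0 higher at an unadjusted p under 0.05. Over all 12264 genes, 1415 were lower and 989 higher at that p. The B cell markers Cd79a and Cr2, the T and natural killer markers Cd4, Ncr1 and Nkg7, the dendritic markers Flt3, Xcr1 and Ccr7 and the costimulation genes Cd80 and Pdcd1lg2 were above the array median on no array.

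**Figure D5:**
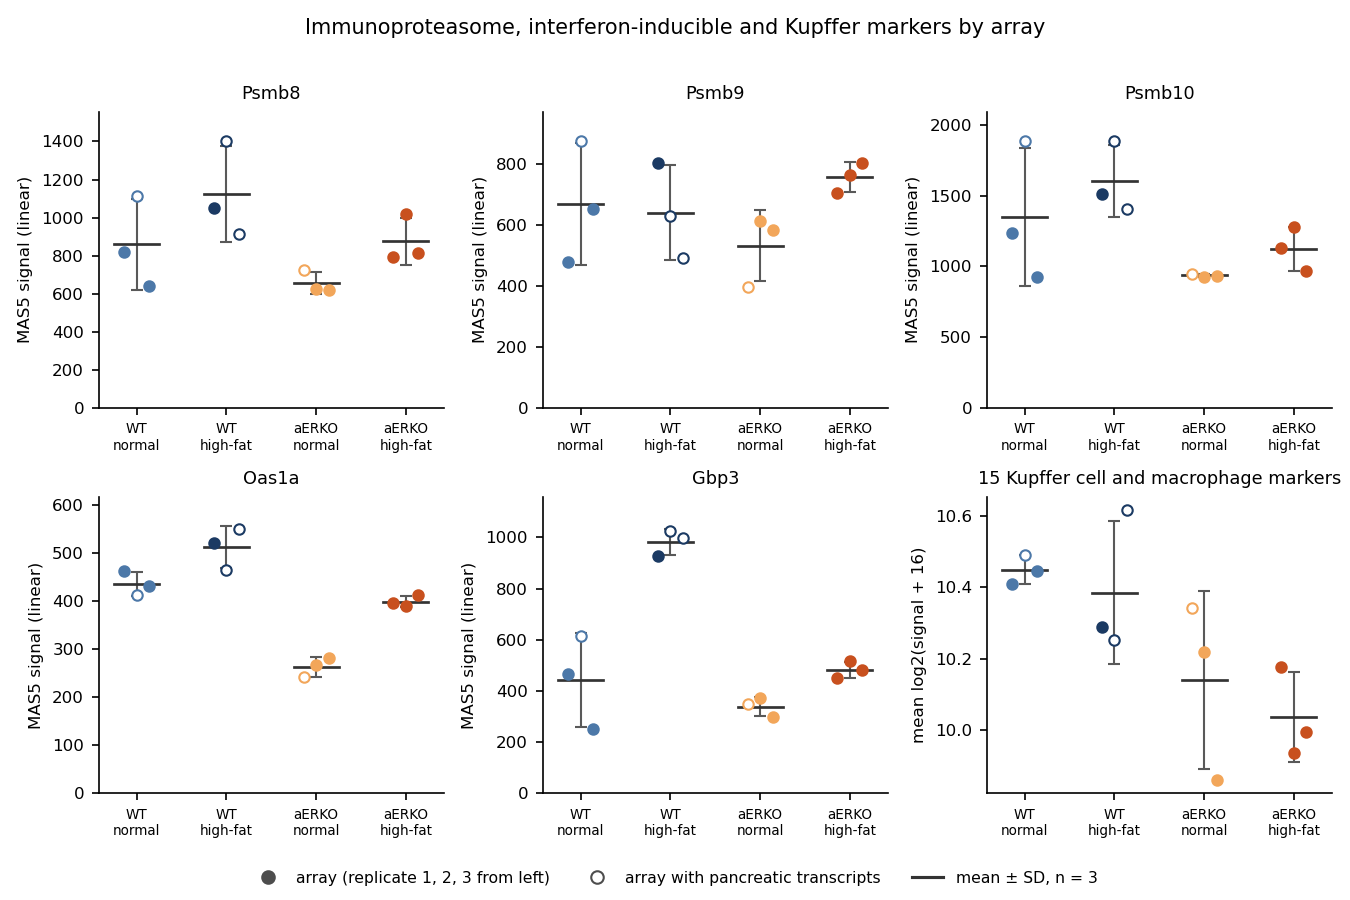
Array signal (linear intensity) of Psmb8, Psmb9, Psmb10, Oas1a and Gbp3, and the mean log2 signal of 15 Kupffer cell markers, by group, with arrays as points, bars as mean ± SD (n = 3) and open circles for the 4 arrays with pancreatic transcripts. Gbp3 was called lower in aERKO on high-fat diet and Oas1a on normal diet, and the Kupffer mean is 10.25 to 10.61 in WT high-fat and 9.94 to 10.18 in aERKO high-fat.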

How the data were processed

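Liver RNA was measured on 12 one-colour Affymetrix arrays. What the authors deposited is a MAS5 signal, a linear intensity, for each probe set and array. MAS5 and Expression Console are named per the submitters' processing notes, and their versions are not given in the sources used here. On each array the mean signal without the lowest and highest 2% was 500, so arrays had been scaled. Scanner files, detection flags and slide or scan batches were not used here.

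Of 45101 probe sets 34958 had 1 symbol, 932 several and 9211 none in the platform annotation. The brightest single-symbol probe set stood for each gene. Genes above the array median on at least 3 of 12 arrays were kept (12264). Values were log2(signal + 16), which understates differences of dim genes. In R 4.3.3, limma 3.58.1 fitted a mean per group to all 12 arrays with an intensity trend (8 residual and 5.85 prior degrees of freedom), with Benjamini-Hochberg adjustment over all genes kept and calls at an adjusted p under 0.05. The 7 comparisons were genotype on each diet, diet in each genotype, both averages and the interaction. The median standard error was 0.202 between 2 groups, a precision limited by the number of arrays. The scripts were tested on simulated data. Correlations used 100000 permutations (scipy 1.17.1).

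Members and lists were chosen with earlier results of these data known. Array values are given for members called in any comparison, those with a log2 difference of at least 1 between 2 groups, and the main class I and class II genes. Of the lists, they are given for some of the called genes. Alternatives were the pseudocount, filter, scaling, probe set, trend, weights, replicate block, samples fitted, and arrays left out.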

Additional observations from a re-analysis of the deposited data

How the results depend on the processing

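Of the 7 counts of members called, those for normal diet, the diets and the interaction stayed at 0 under the 24 alternatives. On high-fat diet the count of 1 went to 0 without the intensity trend (H2-Q10 at 0.55, adjusted p = 0.0662) and also to 0 when the 4 arrays that held pancreatic transcripts were left out. Averaged over diets it went to 0 without those arrays and ranged from 1 to 2 when 1 array was left out. No member's call changed direction. The counts over all genes ranged from 85 to 142 with 1 array left out and from 71 to 158 otherwise on normal diet (150 as reported), from 108 to 308 and 60 to 944 on high-fat diet (243), and from 321 to 566 and 182 to 844 averaged over diets (530). They ranged from 2 to 20 and 0 to 21 for diet in WT (9), from 13 to 81 and 12 to 187 for diet in aERKO (59), and from 52 to 154 and 27 to 192 for diet averaged (116). For the interaction 0 to 2 were called with 1 array left out. The causes of these changes were not tested. Without the trend the shared probe sets were also not called averaged over diets (adjusted p = 0.0749 for H2-T23, 0.0881 for H2-Q9 and H2-Q7, and 0.0589 for H2-Q6 and H2-Q8). With array quality weights the probe set of H2-Q6 and H2-Q8 was called on high-fat diet (-0.97, adjusted p = 0.0043), and that of H2-Q6, H2-Q8 and H2-Q4 on high-fat diet (-1.06, adjusted p = 0.0048) and averaged over diets (-0.66, adjusted p = 0.0133). Taking the mean of a gene's probe sets turned the sign of some uncalled members. Dim members have signals near background, which limits what could be seen for them.

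The replicate numbers do not pair the samples: same-numbered arrays had correlations of deviations from -0.296 to 0.212, and 8 of 24 comparisons were best with the own number. With the replicate number as a block the member counts were the same, and H2-Q10 had an adjusted p of 0.0144 on high-fat diet and 0.0104 averaged over diets. The probe set of H2-Q6 and H2-Q8 was then also called on high-fat diet (-0.82, adjusted p = 0.0236).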
